A study of Mus musculus with 6 samples.

Results

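The genes described here encode factors of late 60S maturation and export, the last steps in the making of the large ribosomal subunit. They were listed by name, with no threshold on a measured value but with earlier results of these data known. The 10 symbols were Nmd3, Lsg1, Sbds, Eif6, Zfp622, Mrto4, Xpo1, Rsl24d1, Spata5 and Arx1, and 9 of them matched a row among the 41255 genes of the table. All 9 passed the filter on low values and were among the 11550 genes tested. Arx1 is a yeast name with no row of its own, and its closest mammalian relative, Pa2g4, was followed separately. The libraries were made from cultures of Ba/F3, a lymphoid cell line of the mouse that depends on interleukin-3, in which a human RPL10 cDNA had been placed by retroviral transfer. The WT group (clones 28, 29 and 36) carried the wild-type cDNA and the R98S group (clones 11, 13 and 35) carried the R98S form, while in both groups a short hairpin RNA lowered the mouse Rpl10 gene and cycloheximide (100 μg/ml, 5 min) preceded RNA isolation. Each library was 1 monoclonal culture grown from a single cell and picked for a strong knockdown, so differences between groups include those between the founding cells, and RPL10 was driven from a vector and not from its own locus.

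Pre-60S particles leave the nucleus bound to the adaptor NMD3 and the export receptor XPO1, and they arrive in the cytoplasm still blocked by placeholder and anti-association proteins. The AAA ATPase SPATA5 first releases RSL24D1, ZNF622 (Zfp622 in the mouse) acts on the export factor PA2G4, MRTO4 gives way to the stalk protein RPLP0, and RPL10 is then inserted as the GTPase LSG1 releases NMD3. At the end, SBDS and the GTPase EFL1 evict EIF6, which until then keeps the particle from joining a 40S subunit. Arginine 98 of RPL10 lies beside a loop that reaches toward the catalytic center, and yeast carrying the equivalent change has been known to retain Nmd3 and Tif6, the relative of EIF6, on cytoplasmic particles.

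The 6 libraries held between 21786776 and 24204991 reads assigned to genes, and each member had at least 684 reads in each library. The mouse Rpl10 gene, the target of the hairpin in all clones, had 2853, 3156 and 1900 normalized read counts (reads divided by a size factor of the library) in the WT clones, taken in the order 28, 29 and 36, and 3028, 1883 and 2617 in the R98S clones, taken in the order 11, 13 and 35. No clone without the hairpin was compared here, so these values do not check the knockdown. The groups overlapped (log2 of the fold change, called log2 change from here on, -0.066, limma's adjusted p = 0.871). Whether reads of the human cDNA entered these counts is not known, and Rpl10l, a near copy that can share reads with Rpl10, was listed at between 1687 and 3998 normalized read counts. Of 10 markers set for Ba/F3 cells, 6 had a median of at least 10 normalized read counts (Il3ra, Csf2rb, Csf2rb2, Ptprc, Cd79a and Cd79b), while the B-lineage genes Igll1, Vpreb1, Ebf1 and Pax5 stayed below that. Of these 6, Csf2rb (log2 change 0.53, limma's adjusted p = 0.0509), Csf2rb2 (0.62, 0.0178) and Cd79b (1.22, 0.0617) were called higher and Ptprc (-1.33, 0.00894) lower in R98S cells. Summed markers of T cells ranged from 2.05 to 8.01 normalized read counts in WT and from 1.02 to 6.48 in R98S clones, those of mast and myeloid cells from 166 to 219 and from 74.5 to 477, those of red cells from 8.597 to 71.05 and from 0 to 9.19, and those of fibroblasts from 2.05 to 17.2 and from 8.33 to 15.3. Of these other-cell markers only Cpa3, Ms4a2 and Hba-a1 passed the filter on low values and were tested. Hba-a1 was called lower in R98S cells (log2 change -3.52, limma's adjusted p = 0.0389), at 0, 6.12 and 0.925 normalized read counts in R98S clones 11, 13 and 35. Cpa3 (1.43, limma's adjusted p = 0.372) and Ms4a2 (-0.57, limma's adjusted p = 0.464) were not called. The part of any of these markers in the results was not tested. In bulk RNA, fewer cells of a type and less RNA per cell cannot be told apart.

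To see whether the mRNAs of this pathway moved with the mutation, R98S clones were compared with WT clones for each member. Xpo1, Spata5 and Mrto4 were higher and Lsg1 was lower in R98S cells, by between 1.28-fold and 1.55-fold upward and to 0.777 of the WT mean downward. The other 5 members (Nmd3, Sbds, Eif6, Zfp622 and Rsl24d1) were short of the threshold of an adjusted p under 0.1. The count of 3 higher and 1 lower out of 9 stands beside 10.7% of all tested genes called higher and 13.1% called lower (23.9% in both directions). The members are too few to read more from these shares. The median log2 change of the members was 0.21 beside -0.011 for all tested genes. Groups did not overlap for 7 of 9 members, 5 higher and 2 lower, compared with 37.3% of all tested genes (18.1% higher and 19.2% lower). The count tests of edgeR and DESeq2 on the recovered reads gave 3 higher and 1 lower as well, beside 23.8% of all tested genes called by edgeR (11.5% higher, 12.2% lower) and 26.9% by DESeq2 (12.6% higher, 14.3% lower).

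**Figure D1:**
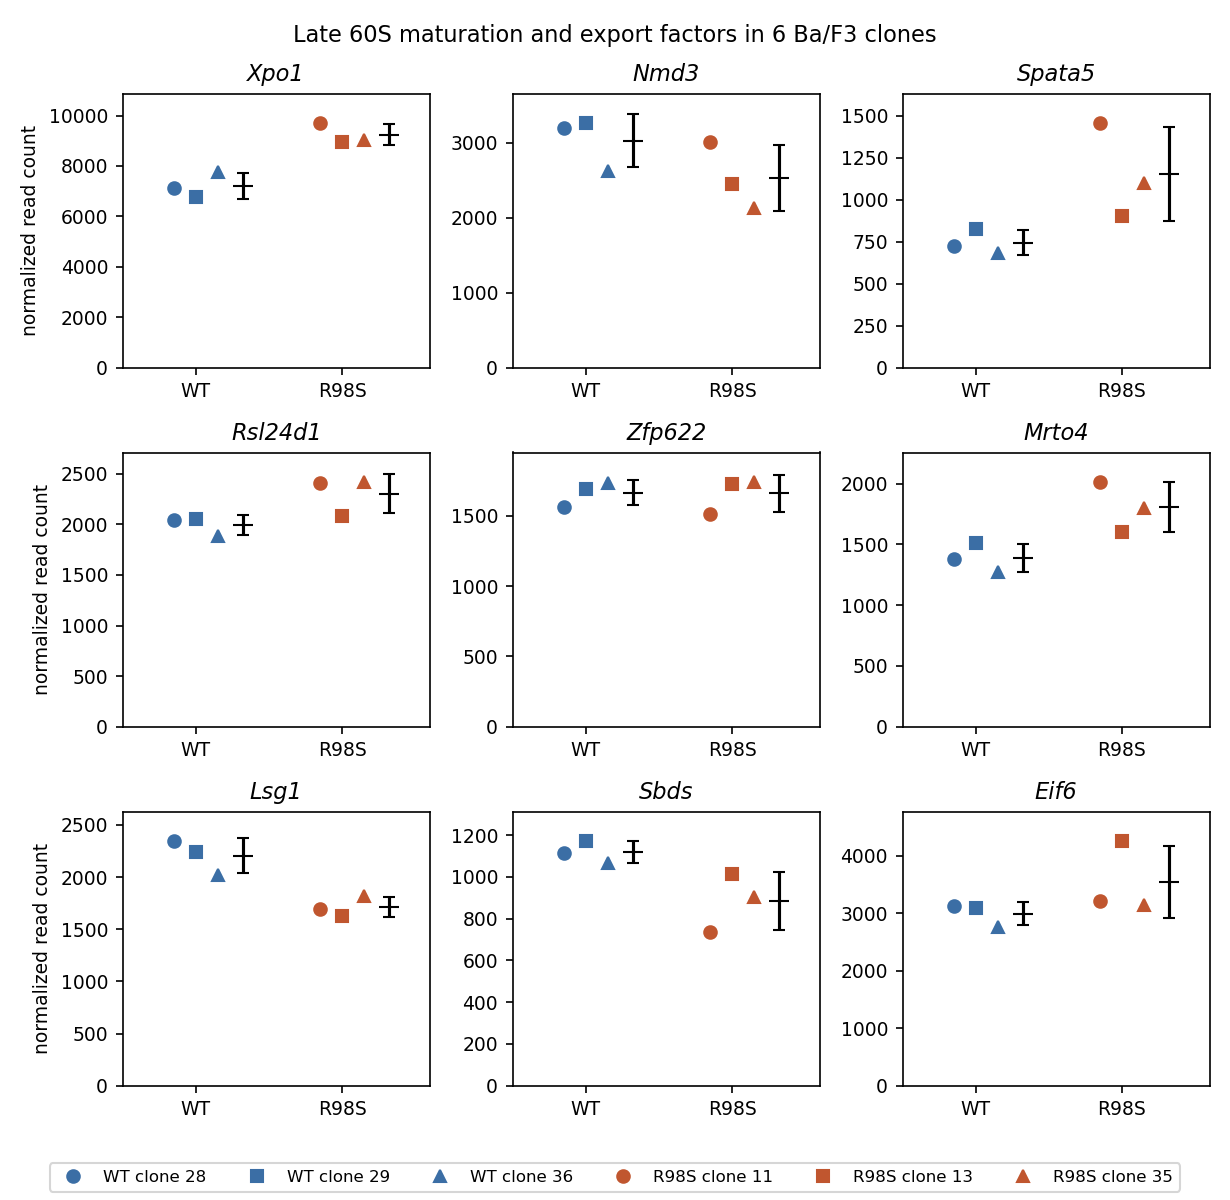
Normalized read counts of the 9 members in each clone (y axes start at 0; WT in blue, R98S in red, 1 symbol per clone), with the group mean and SD (n = 3) as a bar at the right of each group. R98S clones lie above all WT clones for Xpo1, Spata5, Rsl24d1, Mrto4 and Eif6, below all of them for Lsg1 and Sbds, and among them for Nmd3 and Zfp622.

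Fewer genes were called, among the members and among all tested genes, when most single clones were left out, while the log2 changes of the 4 called members kept their direction. Without WT clone 28 these were 0.35 for Xpo1, 0.59 for Spata5, 0.37 for Mrto4 and -0.32 for Lsg1, and without R98S clone 11 they were 0.32, 0.43, 0.30 and -0.36. Without R98S clone 11 limma called 0 of 9 members (4 at an unadjusted p under 0.05), when 6.23% of all tested genes were called higher and 7.55% lower (13.8% together). Without WT clone 28 it also called 0 (3 at an unadjusted p under 0.05), beside 5.06% and 6.38% (11.4% together). Without WT clone 29 it called 1 higher and 0 lower (1 lower at an unadjusted p under 0.05), beside 5.65% and 6.97% (12.6% together). Calls were 1 higher and 1 lower both without R98S clone 35 (8.05% and 9.32% of all tested genes, 17.4% together) and without WT clone 36 (9.58% and 12.2%, 21.7% together). Leaving out R98S clone 13 had the opposite effect, with 4 members called higher and 2 lower beside 12.4% and 15.4% of all tested genes (27.8% together).

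The other settings also moved the count. When the median deviation of the 30 nearest tested genes was subtracted in each library, 3 members were called higher (Mrto4, Rsl24d1 and Spata5) and 0 lower (1 at an unadjusted p under 0.05), beside 25.3% of all tested genes called (11.9% higher, 13.4% lower). At the stricter threshold of an adjusted p under 0.05, Xpo1 alone was called, beside 6.72% of all tested genes called higher and 8.19% lower (14.9% together). Without the filter on low values, which brought 25345 genes into the adjustment, Spata5 alone was called, and 0 members lower (2 at an unadjusted p under 0.05), beside 4.09% of genes called higher and 4.85% lower (8.94% together). Mrto4 was also not called when the variance prior was held constant (limma's adjusted p = 0.120).

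Per length, 4 members were more abundant than the other 5. The mean level over the 6 libraries, in normalized read counts per kb of merged exon, was 1361 for Xpo1, 1328 for Eif6, 1309 for Mrto4 and 1259 for Rsl24d1, which placed them between the 88.4th and the 89.5th percentile of the tested genes. The ranges of these 4 over the libraries overlapped from each to the next. A gap followed, from the lowest library of these 4 (1045, for Mrto4) to the highest Sbds library (757). Sbds, Lsg1 and Zfp622 had mean levels of 647, 616 and 593 per kb and overlapped each other. After a second gap, from the lowest Sbds library (476.4) to the highest Spata5 library (437.6), Nmd3 and Spata5 were lowest, with 304 and 285 per kb. The value of Nmd3 rests on 9135 bases of merged exon in the annotation. By the length of the principal transcript the order at the top changed to Eif6 (2176), Mrto4 (1718), Rsl24d1 (1392) and Xpo1 (1370), and Spata5 (329) came before Nmd3 (304), with overlapping ranges. The second gap closed by that length, since the highest Spata5 library (504.5) lay above the lowest Sbds library (476.4).

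**Figure D2:**
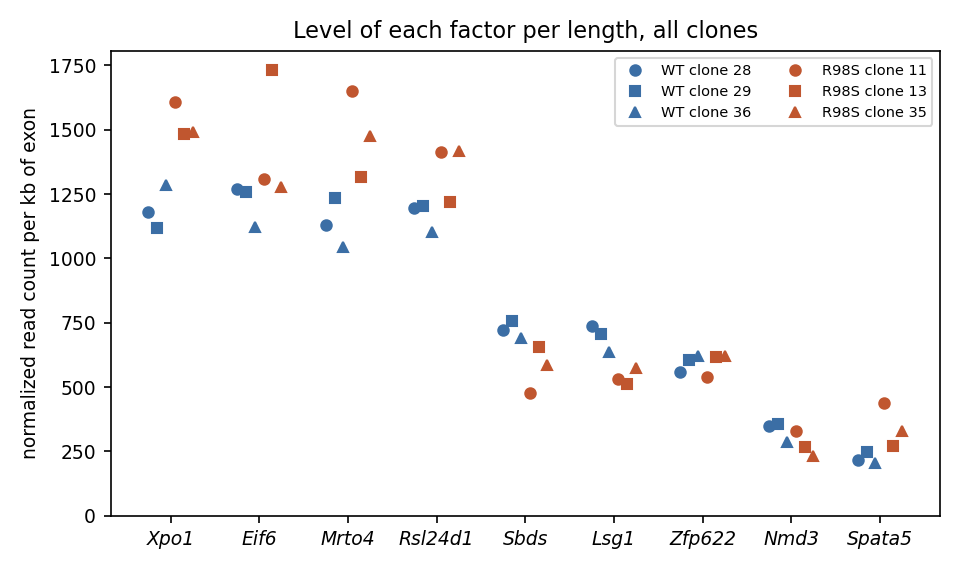
Level of each member in every clone, in normalized read counts per kb of merged exon, ordered by the mean over the 6 libraries. Xpo1, Eif6, Mrto4 and Rsl24d1 lie between 1045 and 1731 per kb, and the other 5 members at no more than 757 per kb.

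RefSeq promoter sequences (GRCm38.p6, from 250 bases before to 50 after the start site) were on hand for 7 members and were searched on both strands for 5 short motifs. The ETS core CCGGAAG was found in Lsg1, Rsl24d1 and Spata5, which is 3 of 7 members with a promoter, beside 21.8% of the 8430 tested genes that had one. CCAAT was found in Xpo1 (beside 43.4% of tested genes) and the E-box CACGTG in Nmd3 (beside 11.7%). The NRF1 core and TATAAA were in none of the 7 windows and in 15.8% and 8.13% of tested genes, and Mrto4 and Zfp622 held none of the 5 motifs. Of the genes with an ETS core, Lsg1 was called lower in R98S cells, Spata5 was called higher and Rsl24d1 was not called. Any part of these motifs in the changes was not tested. The motif and its neighborhood are shown for each of these genes in the direction of transcription, with the motif in capitals and the ETS core in its reverse complement. A further ETS core of Lsg1, 4 to 10 bases from the start on the transcribed side, is not printed. Distances count from the RefSeq start site, which can differ from the GENCODE gene start given with each member. For Rsl24d1 the printed motif begins at the GENCODE start, 73113426, so by that start it is not upstream.
Lsg1, minus strand, chr16:30587628-30587657, with the motif 57 to 51 bases before the start: ccgctgttacaCTTCCGGactggacaactt
Lsg1, minus strand, chr16:30587591-30587620, with the motif 20 to 14 bases before the start: ctcttacatcaCTTCCGGgttcacagccgg
Spata5, plus strand, chr3:37419863-37419892, with the motif 76 to 70 bases before the start: ctctcaggcctCTTCCGGagctcgctccgc
Rsl24d1, plus strand, chr9:73113415-73113444, with the motif 43 to 37 bases before the start: tcagggactcgCTTCCGGcgactaggaagt
Xpo1, plus strand, chr11:23255846-23255875, with the motif 183 to 179 bases before the start: cgggcgctccgaCCAATaagaggtaggctg
Xpo1, plus strand, chr11:23255889-23255918, with the motif 140 to 136 bases before the start: ggccggggccgaCCAATgggcgcgcggcct
Nmd3, plus strand, chr3:69721929-69721958, with the motif 114 to 109 bases before the start: cgccccttgctaCACGTGtattctttgacc

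Of the export factors, the receptor rose and the adaptor did not pass the test. Xpo1 (chromosome 11, 23256041 to 23298249, plus strand), the exportin that carries pre-60S particles and many proteins out of the nucleus, had 7137, 6754 and 7760 normalized read counts in the WT clones against 9710, 8966 and 9015 in the R98S clones. Every R98S clone was above every WT clone. The mean went from 7217 ± 508 to 9230 ± 416 (SD, n = 3), a log2 change of 0.36 (SE 0.10, limma's adjusted p = 0.0488). The direction held without any single clone, but the call was lost without R98S clone 11 (0.32, limma's adjusted p = 0.136), WT clone 28 (0.35, limma's adjusted p = 0.172) or WT clone 29 (0.31, limma's adjusted p = 0.177), and narrowly with the regional shift removed (0.38, limma's adjusted p = 0.105).

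Nmd3 (chromosome 3, 69721985 to 69756373, plus strand), the adaptor that joins the particle to XPO1, had 3195, 3264 and 2621 normalized read counts in the WT and 3004, 2443 and 2131 in the R98S clones. R98S clone 11 lay above WT clone 36, so the groups overlapped. The means were 3027 ± 353 and 2526 ± 443 (SD, n = 3), with a log2 change of -0.27 and a 95% confidence interval from -0.62 to 0.08 (limma's adjusted p = 0.264). The 30 nearest tested genes on chromosome 3 had a median log2 change of -0.30, and with this regional shift subtracted in each library the value of Nmd3 turned to 0.13 (limma's adjusted p = 0.534).

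Among the factors that act first in the cytoplasm, Spata5 rose and its substrate Rsl24d1 was short of the threshold. Spata5 (chromosome 3, 37419896 to 37579096, plus strand), the ATPase that pulls RSL24D1 off the particle, had 724, 826 and 685 normalized read counts in the WT clones against 1458, 906 and 1098 in the R98S clones. R98S clone 13 was close to the highest WT clone and R98S clone 11 well above the rest. Group means were 745 ± 73.2 and 1154 ± 280 (SD, n = 3). Their ratio of 1.55 was the largest change among the 9 members (log2 change 0.61, SE 0.18, limma's adjusted p = 0.0588). The call was lost without R98S clone 11 (0.43, limma's adjusted p = 0.143), R98S clone 35 (0.63, limma's adjusted p = 0.120), WT clone 28 (0.59, limma's adjusted p = 0.160) or WT clone 36 (0.55, limma's adjusted p = 0.125). Spata5 shares 316 bases of exon with Nudt6 on the opposite strand, and since it is not stated whether counting used the strand, reads there cannot be assigned with certainty. Nudt6 itself was listed at between 87.0 and 122 normalized read counts in the 6 libraries, with overlapping groups.

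Rsl24d1 (chromosome 9, 73113426 to 73123333, plus strand), the placeholder that is exchanged for RPL24, had 2042, 2055 and 1882 normalized read counts in the WT and 2409, 2078 and 2420 in the R98S clones. The lowest R98S clone, 13, was only just above the highest WT clone. Means were 1993 ± 96.0 and 2303 ± 195 (SD, n = 3), and the log2 change was 0.21 with a 95% confidence interval from -0.04 to 0.45 (limma's adjusted p = 0.229). Rsl24d1 passed the threshold without R98S clone 13 (0.28, limma's adjusted p = 0.0939) and also once the regional shift was taken out (0.29, limma's adjusted p = 0.0666).

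Zfp622 (chromosome 15, 25984366 to 25998481, plus strand), the zinc finger protein that helps to recycle PA2G4, had 1564, 1694 and 1737 normalized read counts in the WT and 1511, 1725 and 1742 in the R98S clones. Its lowest and its highest value both came from R98S cells. The log2 change was -0.0062 with a 95% confidence interval from -0.26 to 0.24 (limma's adjusted p = 0.976), and its sign changed between scalings.

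Mrto4 (chromosome 4, 139347435 to 139352576, minus strand), the placeholder for the stalk protein RPLP0, was higher in R98S cells. Values were 1380, 1510 and 1276 normalized read counts in the WT clones against 2014, 1605 and 1803 in the R98S clones, without overlap. The mean went from 1389 ± 117 to 1808 ± 205 (SD, n = 3), a ratio of 1.30 (log2 change 0.38, SE 0.12, limma's adjusted p = 0.0788). This was the weakest of the 4 calls: it was lost without R98S clone 11 (0.30, limma's adjusted p = 0.209), R98S clone 35 (0.38, limma's adjusted p = 0.153), WT clone 28 (0.37, limma's adjusted p = 0.208), WT clone 29 (0.44, limma's adjusted p = 0.120) or WT clone 36 (0.32, limma's adjusted p = 0.164). For its neighbors on chromosome 4 the median log2 change was -0.13. Mrto4 has 2 annotated pseudogene copies, which can take or lend reads.

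Lsg1 (chromosome 16, 30560494 to 30587592, minus strand), the GTPase that releases NMD3 at the step where RPL10 is inserted, was the member called lower. It had 2347, 2245 and 2021 normalized read counts in the WT and 1691, 1625 and 1820 in the R98S clones, and every R98S clone was below every WT clone. The mean fell from 2204 ± 167 to 1712 ± 99.2 (SD, n = 3), a log2 change of -0.36 (SE 0.11, limma's adjusted p = 0.0563). The 30 nearest tested genes on chromosome 16 had a median log2 change of -0.23, and with that regional shift removed the value of Lsg1 was -0.13 (limma's adjusted p = 0.432). The call was also lost without R98S clone 11 (-0.36, limma's adjusted p = 0.133), WT clone 28 (-0.32, limma's adjusted p = 0.218) or WT clone 29 (-0.35, limma's adjusted p = 0.168).

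The last pair of members, Sbds and Eif6, differed in sign, and neither passed the threshold. Sbds (chromosome 5, 130245731 to 130255530, minus strand), the gene mutated in Shwachman-Diamond syndrome, had 1114, 1172 and 1067 normalized read counts in the WT clones against 737, 1013 and 905 in the R98S clones. The groups did not overlap, with R98S clone 13 nearest to the WT clones. Means were 1118 ± 52.9 and 885 ± 139 (SD, n = 3), and the log2 change was -0.35 with a 95% confidence interval from -0.67 to -0.02 (limma's adjusted p = 0.134). Without R98S clone 13 it passed the threshold (-0.45, limma's adjusted p = 0.0585). Its neighbors on chromosome 5 had a median log2 change of 0.030.

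Eif6 (chromosome 2, 155819832 to 155826925, minus strand), the anti-association factor that SBDS and EFL1 remove, had 3121, 3093 and 2760 normalized read counts in the WT and 3213, 4256 and 3144 in the R98S clones. Only R98S clone 13 stood apart from the WT values, and the other R98S clones exceeded the highest WT clone by little. Means were 2991 ± 200.8 and 3538 ± 623 (SD, n = 3), with a log2 change of 0.23 and a 95% confidence interval from -0.09 to 0.55 (limma's adjusted p = 0.291). Eif6 shares 138 bases of exon with the antisense gene Gm16098 and Rsl24d1 shares 226 with Gm20509 on its own strand, and both of these were listed at 0 in every library.

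Within a library the ratio of 2 mRNAs does not depend on scaling, so ratios were formed for factors that meet on the particle. Of 8 ratios, 3 separated the groups: Sbds/Eif6, Spata5/Rsl24d1 and Nmd3/Xpo1. Single genes did not overlap between groups for 37.3% of all tested genes, and the share among other ratios was not computed. Sbds was lower and Eif6 higher in every R98S clone than in every WT clone, so their ratio had to separate the groups. The log2 ratio of Sbds to Eif6 was -1.49, -1.40 and -1.37 in the WT clones against -2.12, -2.07 and -1.80 in the R98S clones. It was lower in 3 of 3 R98S clones, and the difference of the means was -0.58 (exact two-sided permutation p = 0.1, and 0.267 after Benjamini-Hochberg adjustment over the 8 ratios). For Nmd3/Xpo1 the difference was -0.62 and for Spata5/Rsl24d1 it was 0.40, with the same p-values. Efl1/Eif6 (0.011), Lsg1/Nmd3 (-0.095), Mrto4/Rplp0 (0.27), Rsl24d1/Rpl24 (0.052) and Nmd3/Rpl10 (-0.20) overlapped between groups, with exact two-sided permutation p-values from 0.2 to 0.9. Rpl10 in the last of these ratios is the mouse gene that the hairpin targets, and whether its counts hold reads of the human cDNA is not known. With 3 clones in each group the exact permutation test cannot give a p under 0.1, so no ratio could have been called.

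**Figure D3:**
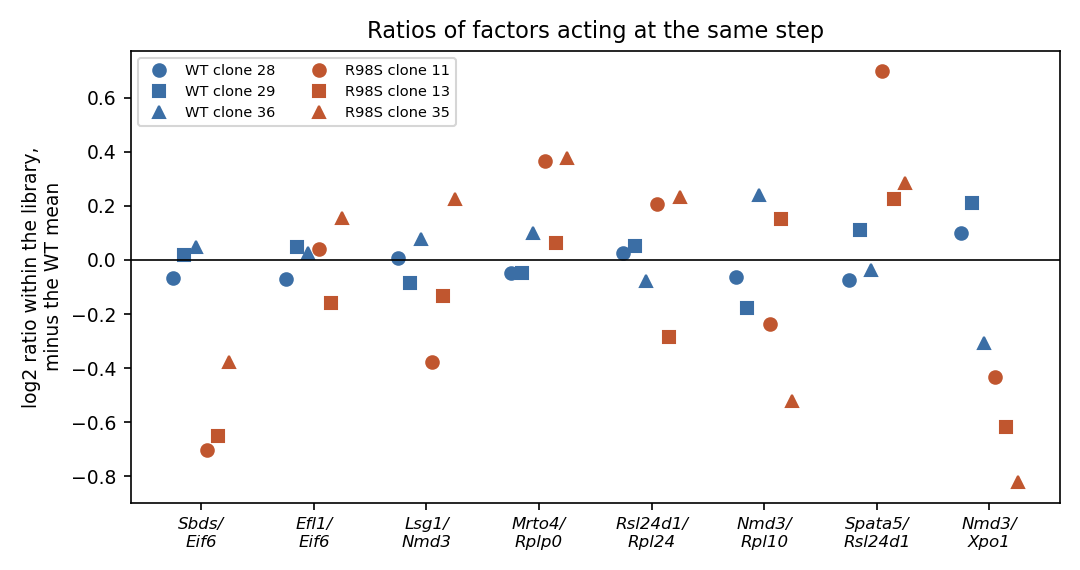
Log2 ratio of 2 mRNAs within each library, drawn relative to the mean of the 3 WT clones (WT in blue, R98S in red, 1 symbol per clone). R98S clones lie below every WT clone for Sbds/Eif6 and Nmd3/Xpo1 and above every WT clone for Spata5/Rsl24d1, while the other 5 ratios overlap.

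The remaining proteins of the cytoplasmic steps were taken from a list of 8 genes, of which 7 were tested and 2 were called, both higher, beside 23.9% of all tested genes called in either direction. Pa2g4, the relative of yeast Arx1, is a methionine aminopeptidase-like protein that covers the tunnel exit of the particle. It had 9444, 8970 and 9677 normalized read counts in the WT and 13583, 11862 and 13721 in the R98S clones, a rise from 9364 ± 360 to 13055 ± 1036 (SD, n = 3; log2 change 0.48, SE 0.10, limma's adjusted p = 0.0220). Aamp, a WD-repeat protein related to the yeast chaperone that escorts Rpl10, had 2411, 2437 and 2041 in the WT and 3846, 4159 and 2927 in the R98S clones, a ratio of 1.59 (log2 change 0.65, SE 0.15, limma's adjusted p = 0.0262). Pa2g4 and Aamp passed the threshold in each of the 16 other fits (limma's adjusted p up to 0.0887 and 0.0906), whereas Xpo1, Lsg1, Mrto4 and Spata5 did in 11, 11, 9 and 12 of them.

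Efl1, listed under its older symbol Eftud1, the GTPase that works with SBDS, had a log2 change of 0.24 (limma's adjusted p = 0.204), beside a median of 0.28 for its neighbors on chromosome 7, and it turned to -0.039 with the regional shift removed. Cinp, a partner of SPATA5, had 0.25 (limma's adjusted p = 0.205) and Dusp12, the phosphatase-like protein that displaces MRTO4, 0.26 (limma's adjusted p = 0.335). Zfp593, at between 30.02 and 51.81 normalized read counts the lowest of the 7 tested genes of the list, had 0.28 with a 95% confidence interval from -0.35 to 0.91. Dnajc21, the J-protein that acts with ZNF622, was at -0.25 (limma's adjusted p = 0.146). Groups did not overlap for 5 of the 7 tested genes in the higher direction and for 1, Dnajc21, in the lower. For all tested genes these shares were 18.1% and 19.2% (37.3% together). In the lower direction limma called 0 of these 7 genes (1 at an unadjusted p under 0.05), as did edgeR and DESeq2. Spata5l1 had at most 2 reads in any library and was not tested.

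**Figure D4:**
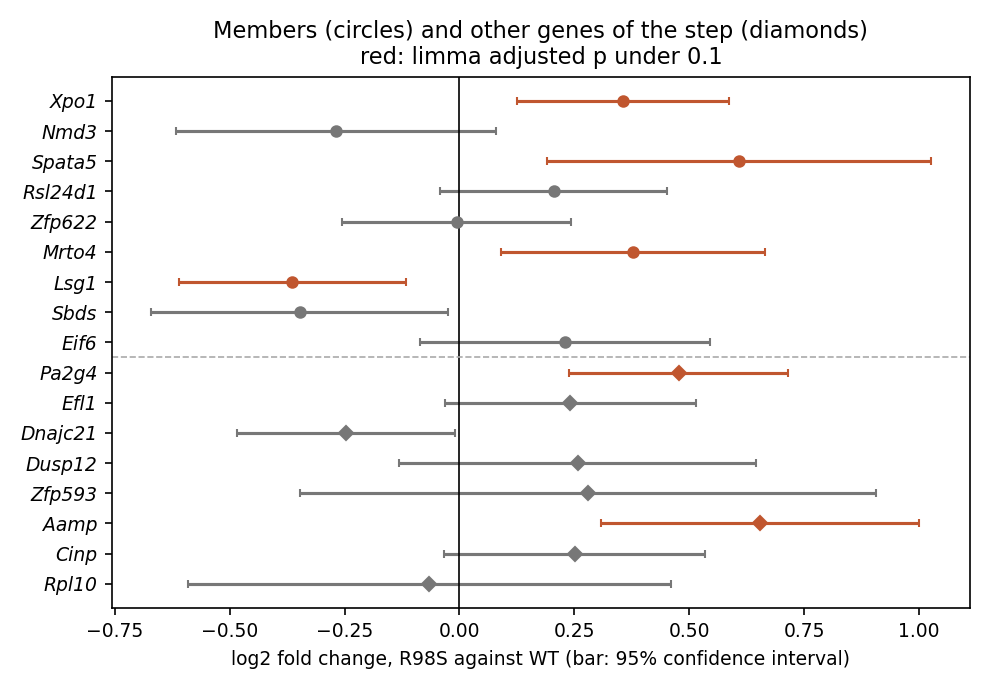
Log2 change of R98S against WT clones with its 95% confidence interval from limma for the 9 members (circles) and for Rpl10 and the 7 tested genes of the cytoplasmic list (diamonds). Intervals drawn in red belong to genes with an adjusted p under 0.1, which are Xpo1, Spata5, Mrto4, Lsg1, Pa2g4 and Aamp.

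The list of nuclear export genes had 13 members, of which 3 were called higher and 1 lower, beside 10.7% and 13.1% of all tested genes, with a median log2 change of 0.14. Rcc1 and Rangap1, which charge Ran with GTP and make it hydrolyze GTP, rose by 0.41 (limma's adjusted p = 0.0360) and 0.35 (limma's adjusted p = 0.0614) on the log2 scale, and Xpo5, another exportin, by 0.51 (limma's adjusted p = 0.0685). Ran itself had 0.14 (limma's adjusted p = 0.470) with overlapping groups. Nup62, a protein of the central pore channel, fell by 0.37 (limma's adjusted p = 0.0532), and by 0.21 with the regional shift removed (limma's adjusted p = 0.210). Without R98S clone 11, WT clone 28 or WT clone 29 limma called 0 of the 13 (4, 3 and 4 at an unadjusted p under 0.05), beside 13.8%, 11.4% and 12.6% of all tested genes, and without R98S clone 35 it called 1 higher and 1 lower.

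Of 11 ribosomal proteins that are inserted late or touch the factors, 10 had a log2 change above 0, beside 5667 of the 11550 tested genes, and 1 was called, beside 23.9% of tested genes. Rplp2, a stalk protein, had a log2 change of 0.39 (limma's adjusted p = 0.0344), while its neighbors on the chromosome had a median of 0.32. With the regional shift removed it was at 0.070 (limma's adjusted p = 0.631), and the call was also lost without WT clone 28 (0.36, limma's adjusted p = 0.160) or WT clone 29 (0.41, limma's adjusted p = 0.106). Rpl24, which takes the place of RSL24D1, and Rplp0, which takes that of MRTO4, had log2 changes of 0.15 (limma's adjusted p = 0.404) and 0.11 (limma's adjusted p = 0.660). The counts of ribosomal protein genes are uncertain, since their many processed pseudogenes share reads with them.

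Upstream of the members, 30 factors of nucleolar and nuclear pre-60S particles had a median log2 change of 0.30, with 27 above 0. They are called late nuclear pre-60S factors elsewhere here, although the list also holds nucleolar assembly factors. Of these 30, 12 were called higher, beside 10.7% of all tested genes. Limma called 0 of them lower, as did edgeR and DESeq2, with 0 at an unadjusted p under 0.05. Ebna1bp2, a nucleolar assembly factor, rose from 2520 ± 126 to 5278 ± 519 normalized read counts (SD, n = 3; ratio 2.09, log2 change 1.06, SE 0.11, limma's adjusted p = 0.00124). Mdn1, the giant AAA ATPase that strips the particle before export, went from 4383 ± 467 to 8677 ± 1834 (log2 change 0.97, SE 0.17, limma's adjusted p = 0.0111). Tex10, of the complex that recruits Mdn1, rose by 0.67 (limma's adjusted p = 0.00873), the nucleolar GTPase Gnl3 by 0.73 (limma's adjusted p = 0.0138) and Wdr12, a partner of Bop1 and Pes1, by 0.72 (limma's adjusted p = 0.0367, and 0.107 without WT clone 29). The neighbors of Ebna1bp2, Mdn1 and Tex10 had median log2 changes of 0.32, 0.36 and 0.33. With the regional shift removed, the log2 changes were 0.72 for Ebna1bp2, 0.66 for Mdn1, 0.56 for Gnl3, 0.48 for Wdr12 and 0.31 for Tex10. The number called higher in this list was 7 without WT clone 29 and 20 with the regional shift removed. Whether the list and the members differ was not tested.

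**Figure D5:**
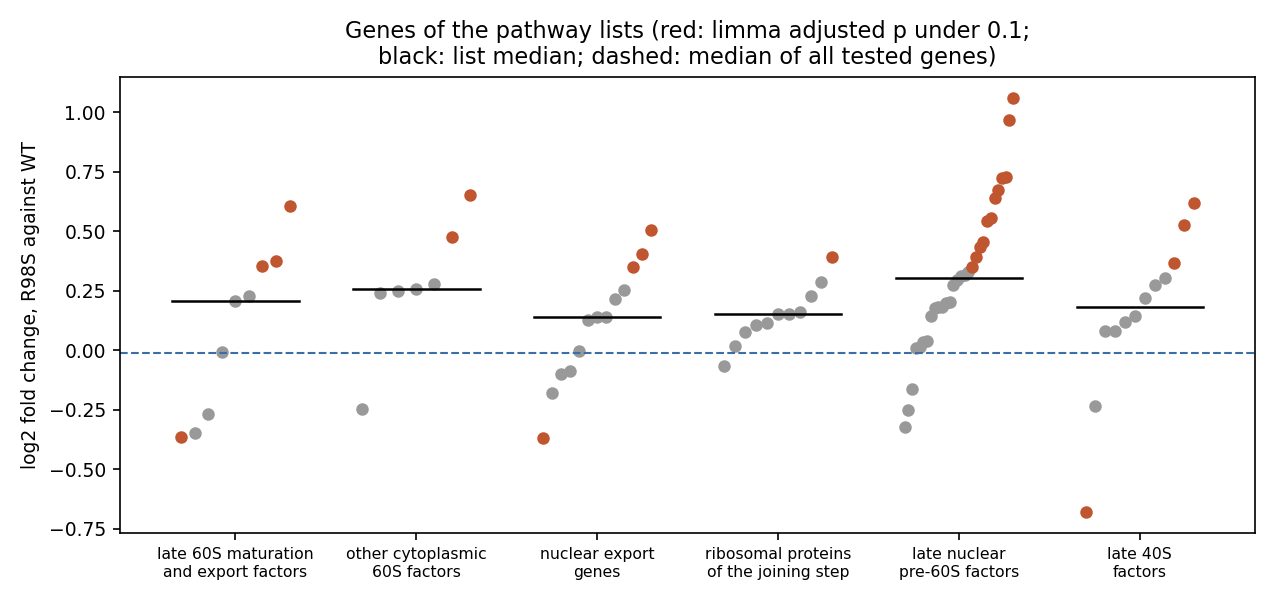
Log2 change of R98S against WT clones for each tested gene of the 6 lists, sorted within a list (red, limma's adjusted p under 0.1), with the list median as a black line and the median of all tested genes (-0.011) dashed. List medians are 0.21 for the members, 0.26, 0.14, 0.15 and 0.30 for the next 4 lists and 0.18 for late 40S factors.

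Clones of 1 group differed from each other in which members were high. Among the R98S clones, clone 13 had the lowest value for 5 of 9 members, and among the WT clones, clone 36 had the lowest for 7 of 9. R98S clone 13 was lowest of its group for Xpo1, Spata5, Rsl24d1, Mrto4 and Lsg1, and highest for Sbds and Eif6. Coefficients of variation ranged from 4.73% (Sbds) to 11.7% (Nmd3) in WT and from 4.51% (Xpo1) to 24.3% (Spata5) in R98S clones.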

How the data were processed

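Polyadenylated RNA of 3 WT and 3 R98S clones of Ba/F3 cells was sequenced from stranded libraries, 1 library per clone. The authors removed rRNA and tRNA reads with Bowtie2, aligned the rest to mm10 with TopHat, kept primary alignments with a mapping quality of at least 10 and counted reads on exons per gene (HTSeq is named in the submitters' processing notes). The gene annotation and the use of strand are not given in the sources used here. The deposited signal per gene is the read count divided by a DESeq2 size factor for each library, called the normalized read count here. In each library 100% of values were whole multiples of 1 step (tolerance 0.01 reads), which gave back the reads (21786776 to 24204991 per library). For WT clone 36 the step was 1.001, which rounded values would resemble.

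Groups were compared on log2(normalized count + 1) by limma 3.58.1 under R 4.3.3, the variance prior following the mean level, over the 11550 genes whose normalized count averaged 10 or more. The test was two-sided, with Benjamini-Hochberg adjustment over all tested genes and a threshold of 0.1. Log2 changes are on that scale, where the added count shrinks the values of low genes. Limma's p-values set the difference between groups against the spread between these clones within a group, with variances moderated across genes. With 1 library per clone, variation of clones and of libraries cannot be told apart. Other fits used pseudocounts of 0.5 and 5, no filter or a minimum mean of 50, other scalings, a constant variance prior (no trend), each clone left out, edgeR (version 4.0.16) and DESeq2 (version 1.42.0) on the recovered reads, and subtraction of the median deviation of the 30 nearest tested genes. The length of the principal transcript was an alternative chosen after seeing the data. The tests were tested on simulated data. The simulated log2 changes were 1 and 0.5 in size, smaller ones were not covered, and the outcome is not given here.

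Positions and exon lengths come from GENCODE M21 (GRCm38, the assembly of mm10). Motifs are described as letters found in a window. The members and lists were chosen with earlier results of these data known. Named are all members, Rpl10 and 10 genes of the step whatever their values (Efl1, Pa2g4, Rpl24, Rplp0, Ran, Dnajc21, Dusp12, Zfp593, Aamp and Spata5l1), and up to 5 genes per list with the largest change among called genes whose groups do not overlap. Cinp, Nudt6, Rpl10l and the marker genes with values were named after their values were seen.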

Additional observations from a re-analysis of the deposited data

How the results depend on the processing

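No paired analysis was possible because no clone number occurs in both groups. Among the 9 members, the number called higher was 1 without a filter and 1 at an adjusted p under 0.05, and the number called lower was 0 without a filter, 0 at an adjusted p under 0.05 and 0 with the regional shift removed (limma; 3 higher and 2 lower at an unadjusted p under 0.05 with all clones, and edgeR and DESeq2 called 3 and 1). Across the fits that left out 1 clone, members called ranged from 0 to 4 higher and from 0 to 2 lower, all tested genes from 585 to 1436 higher and from 737 to 1777 lower, nuclear export genes from 0 to 5 higher and from 0 to 1 lower, ribosomal proteins of the joining step from 0 to 1 higher, late nuclear pre-60S factors from 7 to 16 higher and from 0 to 3 lower, and late 40S factors from 1 to 4 higher and from 0 to 2 lower. Of all tested genes, fewest were called when WT clone 28 was left out and most when R98S clone 13 was. The cause was not tested.

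At an adjusted p under 0.05, 776 of all tested genes were higher and 946 lower, with 1 nuclear export gene higher and 0 lower. Nuclear export genes called were 1 higher without the trend, and 0 lower without a filter or with the regional shift removed. Removal of that shift gave 20 late nuclear pre-60S factors and 6 late 40S factors higher, and 0 late 40S factors lower. The cause was not tested.

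Rpl10 turned to a log2 change of 0.035 with the regional shift removed and ranged from -0.29 to 0.13 over the fits without 1 clone. Nmd3 turned to 0.13 with the regional shift removed. Zfp622 turned to 0.0043 with DESeq2, 0.0089 with edgeR, 0.092 with the regional shift removed, 0.014 with the same total and 0.034 with the same upper quartile, and ranged from -0.051 to 0.060 without 1 clone. Without 1 clone, the difference of the log2 ratio ranged from -0.060 to 0.098 for Efl1/Eif6, from -0.26 to 0.045 for Lsg1/Nmd3 and from -0.038 to 0.22 for Rsl24d1/Rpl24. None of these was called with all clones. The remaining members kept their direction in every fit run.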

Other observations

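The small subunit matures on a separate path. A list called late 40S factors here, which also holds early processing factors such as Rcl1, had 13 genes. Of these, 12 were tested, with a median log2 change of 0.18. Limma called 3 of them higher and 1 lower, beside 10.7% and 13.1% of all tested genes. Pno1, an RNA-binding factor held near the cleavage site of the 18S rRNA, rose from 1388 ± 102 to 2130 ± 71.2 normalized read counts (SD, n = 3; log2 change 0.62, SE 0.10, limma's adjusted p = 0.00964), against a median of -0.24 for its neighbors on the chromosome. Bysl, which joins Pno1 on the particle, had 0.53 (limma's adjusted p = 0.0490) and Rcl1, an early processing factor, 0.37 (limma's adjusted p = 0.0424). Riok3, a kinase of cytoplasmic pre-40S particles, was the gene called lower, from 3889 ± 357 to 2465 ± 593 (log2 change -0.68, limma's adjusted p = 0.0331). The calls of Riok3, Bysl and Rcl1 were lost without R98S clone 11 (limma's adjusted p = 0.105, 0.147 and 0.103). That of Riok3 was also lost without WT clone 29 (limma's adjusted p = 0.106) or with the regional shift removed (-0.52, limma's adjusted p = 0.128), that of Rcl1 without R98S clone 35 (0.102) or WT clone 28 (0.148), and that of Bysl without R98S clone 35 or any 1 of the WT clones (limma's adjusted p from 0.102 to 0.134). The direction of all of them held in each fit run.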
